A study of Homo sapiens with 6 samples.

Results

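This account follows 6 genes, the galectin genes LGALS1, LGALS3, LGALS4, LGALS8 and LGALS9 and the galectin ligand gene LGALS3BP, through gene-level RNA-seq counts of A549, an established cell line from a human lung adenocarcinoma. The members were looked up by name in the count table, but the names were chosen by their known R98W-against-WT differences in these same counts, so those differences are given below as a description and without a test. All 6 were found among the 58721 genes of the table, and all 6 were among the 20713 genes with enough counts to be tested. The study holds 3 libraries labelled as overexpressing wild-type KAT8 (WT) and 3 labelled as overexpressing KAT8 R98W, a variant of this histone acetyltransferase with 1 amino acid changed. All 6 libraries came from polyadenylated RNA of cells grown in DMEM with serum, and both groups are labelled as overexpressing KAT8, with no group labelled as cells at their own KAT8 level. The labels do not give the vector, its promoter, whether a line is a single clone, or whether replicates were separate cultures. The spread behind each p-value below is that between libraries, and may be no more than technical.

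Depth was high and even, from 90007121 to 110152936 counts per library. KAT8 itself stood at 12.2 CPM (read counts scaled to the TMM-adjusted library total) in the library labelled WT replicate 1, and between 166 and 236 CPM in the other 5 libraries, so its KAT8 level goes against its label. KAT8 reads do not separate the introduced gene from the chromosomal one. Results are therefore also given without that library. The A549 label was checked against 8 markers (keratins 8, 18 and 19, EPCAM, CDH1, AKR1B10, AKR1C1, ALDH1A1): all 8 were detected in each library, with EPCAM weakest at 6.12 to 8.29 CPM in WT and 3.3 to 4.71 CPM in R98W, and they summed to between 29000 and 29900 CPM in WT and between 27900 and 31000 CPM in R98W. By edgeR 2 of the 8 were higher in R98W (KRT19, AKR1B10) and 2 lower (EPCAM, ALDH1A1), where 16.2% of all tested genes were called higher and 18.5% lower; these names were chosen after their values were seen. Of 9 markers of blood, endothelial and fibroblast cells, 2 (PECAM1 and LUM) passed the filter on low counts, CD3E was at 0 counts in all libraries, and the 9 summed to between 0.348 and 0.791 CPM in WT and between 0.103 and 0.397 CPM in R98W. The part of both marker lists in the galectin values was not tested. Because these are bulk libraries, fewer cells expressing a gene and less RNA per cell cannot be told apart.

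Galectins are small lectins that bind beta-galactoside sugars, above all the lactosamine units on the branched chains of cell-surface glycoproteins. They are made in the cytosol, leave the cell without a signal peptide, and cross-link glycoproteins into lattices. Inside the cell some of them bind sugars exposed on damaged endosomes and lysosomes. LGALS1 encodes the prototype galectin-1, which works as a dimer, and LGALS3 the chimeric galectin-3, whose sugar-binding domain carries a long flexible tail that allows it to form oligomers. LGALS4, LGALS8 and LGALS9 encode tandem-repeat galectins, with different sugar-binding domains joined in the same chain. LGALS3BP is not a lectin of this family but a heavily glycosylated secreted protein that galectin-3 binds.

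The 6 genes did not move together. LGALS3 was higher in R98W, LGALS1 and LGALS3BP were lower, and LGALS4, LGALS8 and LGALS9 overlapped between the groups. In the fit across all genes by edgeR, 1 member was past the adjusted threshold of 0.05 as higher and 2 as lower, where 34.8% of all tested genes were past it, 16.2% as higher and 18.5% as lower. The CPM of the groups did not overlap for 3 members, against 45.6% of all tested genes. Without WT replicate 1 the members' calls were again 1 higher and 2 lower, against 33.6% of all tested genes called. Since the members were picked on this contrast, nothing is read from those counts. The median log2 fold change (R98W over WT) of the 6 was -0.1, and that of all tested genes was -0.0047.

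**Figure D1:**
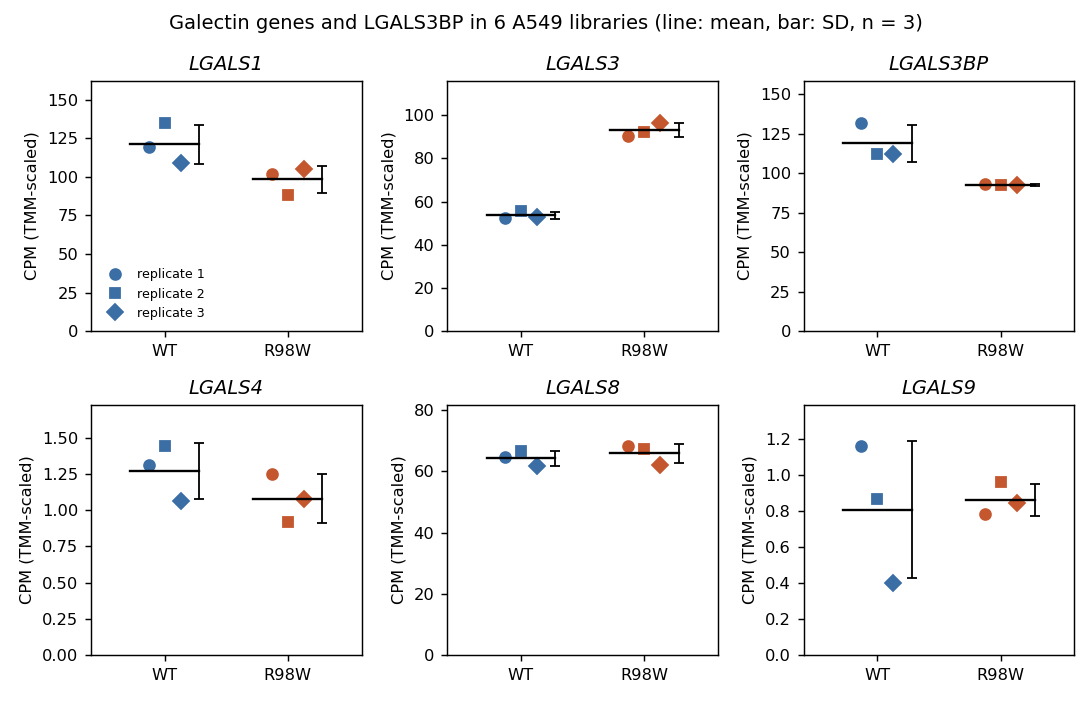
Each panel plots 1 member, with CPM on the vertical axis from 0 and the 3 WT and 3 R98W libraries as points (marker shape gives the replicate number), the line at the mean and the bar showing the SD. The R98W points of LGALS3 sit between 90.5 and 96.5 CPM, above all WT points, those of LGALS1 and LGALS3BP sit below all WT points, and those of the other members overlap with WT.

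LGALS3 (ENSG00000131981, chromosome 14, 55124110 to 55145413, plus strand, hg38) had the largest difference of the 6. It stood at 52.6, 55.5 and 52.9 CPM in WT replicates 1 to 3 and at 90.5, 92.2 and 96.5 CPM in R98W replicates 1 to 3. The lowest R98W library was far above the highest WT library, and within each group the libraries lay close together, with a coefficient of variation (CV, the SD as a percent of the mean) of 2.92% in WT and 3.34% in R98W. The means were 53.7 ± 1.57 CPM (SD, n = 3) and 93.1 ± 3.11 CPM, a 1.73-fold higher level and a log2 fold change of 0.79 (SE 0.06). Ranked from the highest log2 fold change, LGALS3 was number 618 of the 20713 tested genes, so 2.98% of them had a larger one. Its value was 0.77 (SE 0.07) on leaving out the library labelled WT replicate 1.

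The promoter window of LGALS3 is shown because it belongs to the member that differed most. RefSeq sequence (GRCh38.p14), from 250 bases before to 50 after each annotated start, was found for 5 of the 6 members, and LGALS1 had no entry. The LGALS3 window, chr14:55129002-55129301, was 78.3% G and C, against a median of 58.7% over all 35116 promoter windows. The start it surrounds lies inside the gene span given above. It held 3 matches to the GC box GGGCGG on either strand, a motif that 45% of all windows hold at least once. The middle match of the 3 begins at base -47 from the start site and lies in chr14:55129193-55129222 on the plus strand, with the GC box in capitals:
LGALS3: gagaggcgggccGGGCGGggctgggagtat
The TATA box, searched as TATAAA and held by 11.5% of all windows, was not in these letters on either strand. Neither was the CCAAT box, which 34.6% of all windows hold. The AP-1 site was searched as TGANTCA, is held by 7.71% of all windows, and gave no match. The interferon response element core, a pair of GAAA blocks with 2 free bases between them, is held by 3.57% of all windows and gave no match here.

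LGALS1 (ENSG00000100097, chromosome 22, 37675608 to 37679806, plus strand) was lower in R98W, with more spread than LGALS3. It stood at 119, 135 and 109 CPM in WT and at 102, 88.2 and 105 CPM in R98W. The groups did not overlap, but the lowest WT library and the highest R98W library were only a few CPM apart. The means were 121 ± 12.8 CPM (SD, n = 3) and 98.3 ± 8.82 CPM, or -0.30 on the log2 scale (SE 0.08). The CV was 10.6% in WT and 8.97% in R98W, where counting alone would give 0.892% and 1.01%, so nearly all of the spread lay between libraries. With each library left out in turn the log2 fold change ran from -0.38 to -0.23. It was -0.32 on leaving out the library labelled WT replicate 1, and at -0.23 without R98W replicate 2 it was no longer past the threshold of the all-gene fit.

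LGALS3BP (ENSG00000108679, chromosome 17, 78971238 to 78980109, minus strand) was also lower in R98W. It stood at 132, 112 and 112 CPM in WT and at 93.4, 92.3 and 92.4 CPM in R98W. The 3 R98W libraries were almost level, and the highest WT value was that of the library labelled WT replicate 1, the one with low KAT8. The means were 119 ± 11.8 CPM (SD, n = 3) and 92.7 ± 0.586 CPM, or -0.36 on the log2 scale (SE 0.07). The difference was smallest, -0.28 (SE 0.07), on leaving out the library labelled WT replicate 1, and the other fits with a library left out reached -0.41.

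LGALS3BP and LGALS9 are both known as interferon-induced genes. Their promoter windows were the 2 of the 7 member windows that held the interferon response element core, which 3.57% of all windows hold. Whether either match is active in these cells was not tested. The match of LGALS3BP begins at base -58 and lies in chr17:78979962-78979991 on the minus strand. That of LGALS9 begins at base -9, reads on the opposite strand and lies in chr17:27631169-27631198 on the plus strand. Both matches, and the starts from which they are counted, lie inside the span given for the gene. Capitals mark the core:
LGALS3BP: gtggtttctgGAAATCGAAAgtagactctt
LGALS9: gttgctttggTTTCTATTTCtttgttaagt

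Ratios of read counts within a library need no scaling between libraries. They are made of the same counts on which the members were picked, so they describe the difference in another form and do not support it. The ratio of LGALS3 to LGALS1 was 0.442, 0.412 and 0.485 in WT and 0.886, 1.04 and 0.923 in R98W. The ratio of LGALS3 to LGALS3BP was 0.398, 0.495 and 0.474 in WT and 0.969, 0.998 and 1.05 in R98W. In both ratios the R98W libraries lay above all WT libraries, with means 2.13 and 2.2 times the WT means. The ratio of LGALS1 to LGALS3BP, the lower members, overlapped between the groups at 1.03 ± 0.156 in WT and 1.06 ± 0.093 in R98W (SD, n = 3). Set against LGALS8, the ratio of LGALS1 went from 1.87 ± 0.13 to 1.5 ± 0.184 and that of LGALS3BP from 1.84 ± 0.183 to 1.41 ± 0.065, without overlap in either.

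**Figure D2:**
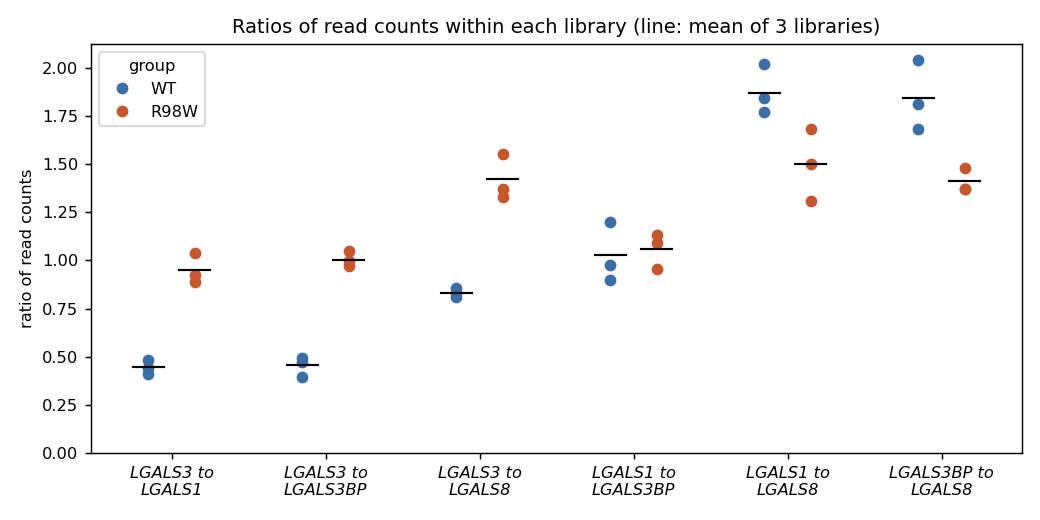
The vertical axis gives the ratio of read counts of a pair of members in the same library, from 0, with 3 WT points and 3 R98W points per pair and a line at each mean. Ratios with LGALS3 on top are higher in each R98W library than in any WT library, and the ratio of LGALS1 to LGALS3BP overlaps.

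LGALS8 (ENSG00000116977, chromosome 1, 236518000 to 236552981, plus strand), whose product binds sugars on ruptured vesicles and recruits the autophagy receptor CALCOCO2, was at nearly equal levels. It stood at 64.8, 66.7 and 61.8 CPM in WT and at 68.2, 67.3 and 62.2 CPM in R98W. All R98W values lay within a few CPM of the WT values, and the groups overlapped. The log2 fold change was 0.03 (SE 0.07), and with each library left out in turn it ran from -0.01 to 0.07. The gene overlaps HEATR1, LGALS8-AS1 and AL359921.2 on the other strand. The strand setting of the counting is not given in the sources used here, so reads in the overlaps cannot be told apart.

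LGALS4 (ENSG00000171747, chromosome 19, 38801671 to 38813364, minus strand), a galectin best known from gut epithelium, was weakly expressed. Of all tested genes, 67.1% had a larger mean CPM. Its read counts were 130, 166 and 101 in WT and 123, 89 and 114 in R98W, or 1.27 ± 0.192 and 1.08 ± 0.167 CPM (SD, n = 3). The groups overlapped, with a log2 fold change of -0.23 (SE 0.22). The CV was 15.1% and 15.4%, where counting alone gives 8.69% and 9.59%, and the difference was about as large as the SD within a group.

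LGALS9 (ENSG00000168961, chromosome 17, 27629798 to 27649560, plus strand), a galectin known as a ligand of the T cell surface protein HAVCR2, was the weakest member and the least even. Its read counts were 115, 100 and 38 in WT and 77, 93 and 89 in R98W. The 3 R98W libraries lay inside the WT range, and WT replicate 3 was far below the other WT libraries. The CV was 47.2% in WT against 10.9% from counting alone, and 10.4% in R98W against 10.8%. The log2 fold change was 0.09 (SE 0.31). It was 0.42 (SE 0.32) on leaving out the library labelled WT replicate 1 and -0.24 without WT replicate 3, so its direction rests on single libraries. LGALS9B and LGALS9C, also on chromosome 17, are close copies of LGALS9, so the split of reads among the 3 genes is uncertain.

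**Figure D3:**
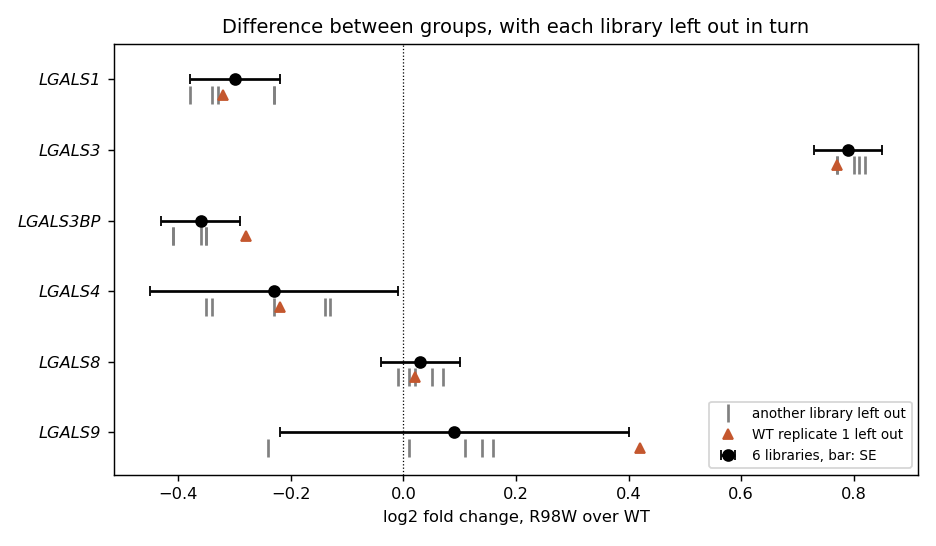
The horizontal axis gives the log2 fold change of R98W over WT for each member, with the fit of all 6 libraries as a point and its SE as a bar, and below it the values with each library left out (triangle: WT replicate 1). LGALS3 stays between 0.77 and 0.82, LGALS1 and LGALS3BP stay below 0, and LGALS9 runs from -0.24 to 0.42.

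Levels of different genes were compared per kilobase of merged exons (CPM per kb, basic annotation of GENCODE release 29). LGALS1 led in both groups, at 216 ± 22.8 CPM per kb (SD, n = 3) in WT and 176 ± 15.7 in R98W. In WT it was followed by LGALS3BP at 46.1 ± 4.58 and LGALS3 at 37.8 ± 1.1 CPM per kb, and each WT library had LGALS3BP above LGALS3. In R98W the order of this pair was turned, with LGALS3 at 65.5 ± 2.19 and LGALS3BP at 36.0 ± 0.228 CPM per kb, in all 3 libraries. LGALS8 came next in both groups, at 9.26 ± 0.35 and 9.47 ± 0.458 CPM per kb. LGALS4 stood at 0.828 ± 0.125 and 0.706 ± 0.109 and LGALS9 at 0.26 ± 0.122 and 0.277 ± 0.0289 CPM per kb, far below the rest. No neighbours in the order overlapped over the 3 libraries of a group. The order was the same with exons merged over the comprehensive annotation, where LGALS1 stood at 110 CPM per kb in WT. Of the summed level per kb of the 6 genes, LGALS3 made up 11.9%, 11.7% and 13.1% in WT and 21.7%, 24.1% and 22.6% in R98W. The share of LGALS1 was 68.3%, 72% and 68.4% in WT and 62.2%, 58.6% and 62.1% in R98W.

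The rest of the family was little expressed in these cells. Of 12 other galectin family genes 4 passed the filter on low counts, and edgeR called 0 of them higher and 0 lower, with 0 at an unadjusted p under 0.05. Limma-voom and DESeq2 also called 0. LGALSL, which encodes a galectin-related protein, was the only one of the 12 above 1 CPM, at 23.6 ± 2.06 CPM in WT and 24.7 ± 1.5 CPM in R98W (SD, n = 3), or 0.07 on the log2 scale (SE 0.08; adjusted p = 0.588 by edgeR). LGALS2 stood at 0.477 ± 0.162 and 0.446 ± 0.126 CPM. LGALS9C had 9, 14 and 6 counts in WT and 21, 16 and 14 in R98W, which touch but do not overlap on the CPM scale, with 0.87 on the log2 scale (SE 0.55; adjusted p = 0.243 by edgeR). LGALS9B had 4 to 14 counts per library. LGALS7, LGALS7B, LGALS12 and GRIFIN had at most 11 counts in any library. The placental galectins LGALS13, LGALS14 and LGALS16 and the eosinophil galectin CLC were at 0 counts in all 6 libraries, which allows up to 0.0316 CPM by counting error alone in WT replicate 3, the shallowest library.

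Genes that supply or meet galectins were described from lists written with earlier results of these data known. The share called among all tested genes, given beside each list, is not matched to the lists in level. Of all tested genes, 16.4% had a larger mean CPM than LGALS8, while many listed genes stood above it. Weak genes carry more counting error and are harder to call. No excess of calls is therefore read from the percentages of the lists. Glycoproteins known as galectin ligands were mostly higher where they changed: edgeR called 9 of 23 tested genes higher and 3 lower (52.2%, against 34.8% of all tested genes), with a median log2 fold change of 0.15. MUC1, a membrane mucin, had the largest fall, from 3.98 ± 0.127 to 1.62 ± 0.388 CPM (SD, n = 3), or -1.30 on the log2 scale (SE 0.17; adjusted p = 9.46e-06 by edgeR). The matrix protein gene FN1 fell from 2380 ± 209 to 1680 ± 215 CPM, and the adhesion molecule gene MCAM had a log2 fold change of -0.65. The transferrin receptor gene TFRC rose from 504 ± 10.8 to 641 ± 10.3 CPM, or 0.35 on the log2 scale (SE 0.06; adjusted p = 0.000184 by edgeR). Further rises, each of 0.28 or less on the log2 scale, were those of the integrin genes ITGA6 and ITGA3, LAMP2, BSG, ALCAM, CD44, LAMC1 and CD47. Of these 8 calls that of ITGA6 held in all 14 alternatives. Those of LAMP2 and BSG ended in 1, ALCAM in 3, CD44 and LAMC1 in 4, ITGA3 in 5 and CD47 in 6 (edgeR adjusted p from 0.0507 to 0.388), and the ITGA3 groups overlapped. The integrin beta chain gene ITGB1 had 0.11 (adjusted p = 0.164 by edgeR) and EGFR 0.17 (edgeR adjusted p = 0.0653, and 0.0181 with WT replicate 1 left out). Apart from MUC1, FN1, MCAM and TFRC, the genes of this list are named after their values were seen. The list had 10 higher and 4 lower on leaving out the library labelled WT replicate 1. Without R98W replicate 2 it had 4 and 3, and after scaling by library totals, chosen after seeing the data, 2 and 6.

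Genes listed for N-glycan branching were called in 8 of 13 cases (61.5%, against 34.8% of all tested genes), 5 higher and 3 lower. Their median log2 fold change was 0.21. The list also holds the core fucose gene FUT8 and the bisecting sugar gene MGAT3. MGAT4B, which adds a branch to the N-glycan core, rose from 152 ± 10.1 to 203 ± 7.98 CPM (SD, n = 3), or 0.41 on the log2 scale (SE 0.07; adjusted p = 9.14e-05 by edgeR), and overlaps SQSTM1 on the other strand. Its relative MGAT4A rose by 0.34, the mannosidase genes MAN1A2 and MAN2A1 by 0.36 and 0.32, and MGAT1, which starts the first branch, by 0.22. FUT8, which adds the core fucose, fell from 38.8 ± 1.37 to 29.9 ± 0.735 CPM. MGAT3, which adds the bisecting sugar, went from 0.994 ± 0.374 to 0.482 ± 0.14 CPM and MAN2A2 from 35.6 ± 1.9 to 29.4 ± 2.32 CPM, and both were also called lower, although the MGAT3 groups overlapped. MGAT5, whose branch carries long lactosamine chains, had 0.10 on the log2 scale (SE 0.07; adjusted p = 0.312 by edgeR). MGAT1, MGAT3, MGAT4A, MGAT5 and MAN2A2 are named after their values were seen. The counts were also 5 and 3 on leaving out the library labelled WT replicate 1. The MAN2A2 call ended without R98W replicate 2 (adjusted p = 0.0819 by edgeR) and the MGAT1 call after scaling by library totals (adjusted p = 0.214 by edgeR). The MGAT3 call ended without WT replicate 2, WT replicate 3 or R98W replicate 2 (edgeR adjusted p from 0.0675 to 0.0874).

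Genes listed for lactosamine chains and O-glycans were called in 7 of 17 tested cases (41.2%, against 34.8% of all tested genes, a background not matched in level). Of these calls 6 were higher and 1 lower, and the median log2 fold change of the list was 0.045. GCNT2, which branches lactosamine chains, rose from 76.7 ± 6.99 to 106 ± 2.04 CPM (SD, n = 3), or 0.47 on the log2 scale (SE 0.07; adjusted p = 4.73e-05 by edgeR). The galactosyltransferase gene B4GALT4 rose by 0.40, the core 1 synthase gene C1GALT1 by 0.38 and the O-glycan branching gene GCNT3 by 0.36. B4GALT1, the main galactosyltransferase of N-glycans, had 0.06 (SE 0.06, adjusted p = 0.534 by edgeR), and is named after its value was seen. The 1 lower gene, B4GALT6, had -0.27. Its call ended on leaving out the library labelled WT replicate 1 and in 5 further alternatives (adjusted p from 0.0502 to 0.209 by edgeR or limma-voom). Among the 6 higher genes, B4GALT5 had 0.17 (adjusted p = 0.0438 by edgeR), and its call ended in 9 alternatives (edgeR adjusted p from 0.0558 to 0.525). The call of B3GNT3, at 0.32, ended in 3 (edgeR adjusted p from 0.0543 to 0.0784). B4GALT6, B4GALT5 and B3GNT3 are named after their values were seen. In all, 4 genes of this list were called without WT replicate 3 and 4 without R98W replicate 1, all higher. After scaling by library totals 4 were higher and 3 lower.

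Of 8 genes listed for the sialic acid that caps lactosamine, edgeR called 2 higher and 0 lower (25%, against 34.8% of all tested genes). At an unadjusted p under 0.05 by edgeR 0 were lower, and limma-voom and DESeq2 also called 0 lower. GNE, which starts sialic acid synthesis, rose from 82.4 ± 2.44 to 105 ± 7.7 CPM (SD, n = 3) and CMAS, which activates finished sialic acid, from 75.2 ± 4.26 to 93.2 ± 3.37 CPM. Both calls held on leaving out the library labelled WT replicate 1. After scaling by library totals the list had 2 higher and 1 lower, the lower one being ST3GAL1 (-0.19, adjusted p = 0.0473 by edgeR). Of the transferases in the TMM-scaled fit, ST6GAL1, whose linkage blocks galectin-1 binding, had -0.08 on the log2 scale (SE 0.10, adjusted p = 0.568 by edgeR). ST3GAL1 had -0.07 (adjusted p = 0.481 by edgeR) and ST3GAL3 had 0.28 (SE 0.26, adjusted p = 0.44 by edgeR). ST6GAL1 is named after its value was seen.

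Of 16 tested genes of the response to damaged endosomes and lysosomes, where LGALS3 and LGALS8 act as markers, 6 were higher and 0 lower (37.5%, against 34.8% of all tested genes). At an unadjusted p under 0.05 by edgeR 7 were higher and 1 lower. Limma-voom called 6 higher and DESeq2 7 higher, and both called 0 lower. The kinase gene LRRK2 rose from 53.2 ± 3.2 to 75.1 ± 6.55 CPM (SD, n = 3), or 0.50 on the log2 scale (SE 0.07; adjusted p = 3.94e-05 by edgeR). The autophagy receptor gene TAX1BP1 rose by 0.30, the kinase gene TBK1 by 0.29 and the ESCRT adaptor gene PDCD6IP by 0.23. The direct galectin partners had 0.12 each: CALCOCO2, which binds galectin-8 (adjusted p = 0.17 by edgeR), and TRIM16, which binds galectin-3 (adjusted p = 0.18 by edgeR). The list had 6 higher and 1 lower on leaving out the library labelled WT replicate 1, and 4 were higher without WT replicate 2, WT replicate 3 or R98W replicate 3. After scaling by library totals 2 were higher and 3 lower, with the TBK1 and PDCD6IP calls ended (edgeR adjusted p = 0.0755 and 0.153). The direct partners are named after their values were seen. Of the genes named from these lists, MCAM, ITGA6, BSG, ITGB1, FUT8, MGAT1, B4GALT1, B4GALT6, GCNT2, GCNT3, GNE, CMAS, ST3GAL3, TAX1BP1, LRRK2, PDCD6IP and TRIM16 also overlap a gene on the other strand. CD44 and TRIM16 overlap a gene on the same strand.

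**Figure D4:**
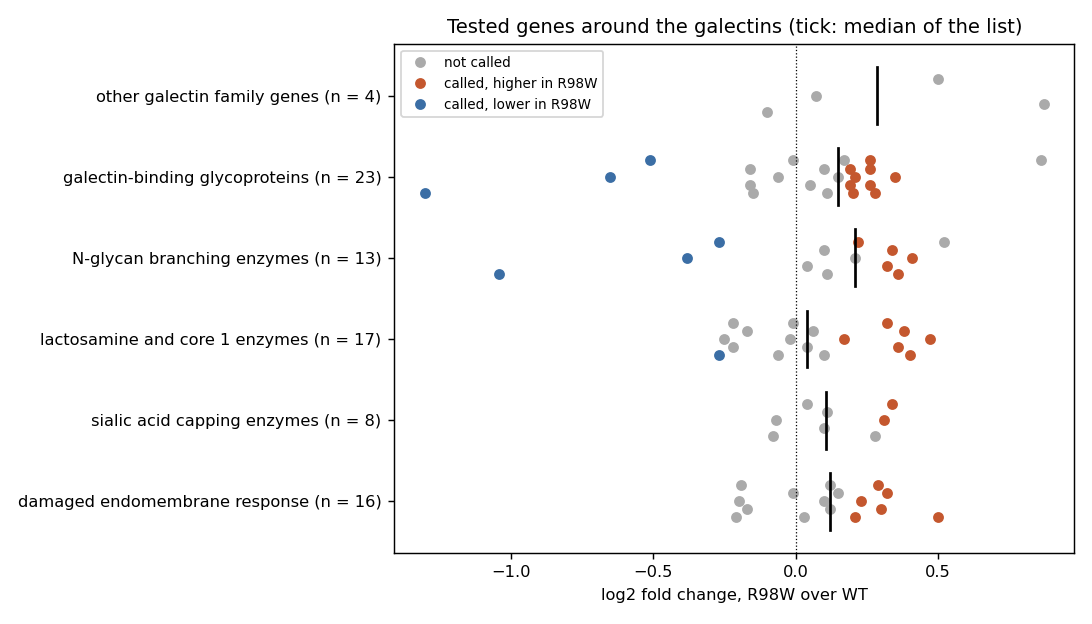
The horizontal axis gives the log2 fold change of R98W over WT for each tested gene of 6 lists around the galectins, coloured by the edgeR call, with a tick at the median of each list. The medians lie between 0.045 and 0.28, and each of the lists holds genes on either side of 0.

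The nearest tested genes on either side of the members gave no common pattern. Some lie far off: MAPK1IP1L is 53918 bases from LGALS3, TIMP2 45851 from LGALS3BP, CAPN12 31767 from LGALS4 and NOS2 107206 from LGALS9. The tested neighbours of LGALS3 were MAPK1IP1L, with 0.15 on the log2 scale (SE 0.08; adjusted p = 0.134 by edgeR), and DLGAP5, which lies 2699 bases away on the other strand, with 0.08 (SE 0.06, adjusted p = 0.402 by edgeR). Both were far from the 0.79 of LGALS3. Next to LGALS1, PDXP had -0.10 (SE 0.33) and NOL12 0.01 (SE 0.25), both weakly expressed. Next to LGALS3BP, TIMP2 had -0.10 (adjusted p = 0.232 by edgeR). CANT1 had -0.16 (adjusted p = 0.054 by edgeR), and was past the threshold in 6 alternatives, among them the fit on leaving out the library labelled WT replicate 1 (adjusted p = 0.0381 by edgeR). The neighbours of LGALS4 were the only ones called in the TMM-scaled fit of all 6 libraries. ECH1, a mitochondrial fatty acid enzyme gene 2058 bases away, rose from 107 ± 2.37 to 135 ± 5.42 CPM (SD, n = 3), and CAPN12 rose by 0.71. On the other strand ECH1 overlaps AC104534.1 and CAPN12 overlaps ACTN4. Both calls held on leaving out the library labelled WT replicate 1, and LGALS4 between them was at -0.23. The neighbours of LGALS9 were KSR1 with -0.13 (adjusted p = 0.216 by edgeR) and NOS2 with -0.76 (SE 0.40, adjusted p = 0.153 by edgeR), and those of LGALS8 were HEATR1 with 0.05 (adjusted p = 0.6 by edgeR) and LGALS8-AS1 with -0.23 (adjusted p = 0.726 by edgeR). After scaling by library totals TIMP2 (-0.22, adjusted p = 0.00947 by edgeR) and KSR1 (-0.24, adjusted p = 0.0175 by edgeR) were also past the threshold. KSR1 overlaps AC069366.1 on the other strand.

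Likeness of pattern was measured by Pearson's r of log2 CPM over the 6 libraries with each of 12158 protein-coding genes of at least 1 CPM (12159 for LGALS9), as a description: with few libraries in separate groups a high r is common, and for LGALS3 711 genes were over 0.95. Most like LGALS3 was the histone H4 gene H4C8 (HIST1H4H in the annotation), from 5.83 ± 0.259 to 12.1 ± 0.556 CPM (SD, n = 3), with r = 1.0 after rounding. Next was the proteasome gene PSMD14, from 186 ± 0.283 to 242 ± 4.16 CPM with r = 0.998, which overlaps AC009299.2 on the other strand. LGALS1 was most like the ubiquitin enzyme gene UBE2C (r = 0.994) and ZNF43 (r = 0.987), and LGALS3BP was most like the nuclear membrane gene NRM (r = 0.991) and C21orf58 (r = 0.989). Only 45 and 102 genes were over 0.95 for these members. For LGALS4 the most alike were PALD1 (r = 0.976) and MVB12A (r = 0.973), for LGALS8 TOR1A (r = 0.975) and USP10 (r = 0.97), and for LGALS9 AHNAK (r = 0.966) and JHY (r = 0.964), all of them genes whose groups overlapped.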

How the data were processed

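The deposited table gives raw read counts for each gene and library. Per the submitters' processing notes, the tools were HTSeq 0.11.3, HISAT2 2.1.0 and CASAVA 1.8, with build hg38. Annotation and strand setting: not given in the sources used here. All 58721 rows matched GENCODE release 29 by identifier. Counts were filtered by filterByExpr (minimum count 10, minimum total 15), scaled by TMM and tested with edgeR 4.0.16 in R 4.3.3 (quasi-likelihood test, all 6 libraries, Benjamini-Hochberg adjustment over 20713 genes, threshold 0.05). A called gene is past that threshold, SE comes from the test statistic, and CPM uses TMM-scaled totals. The members and lists were chosen with earlier results of these data known. Named genes were the members, galectin family genes, the 4 smallest p of each other list, the nearest tested gene on either side, and the 2 most alike genes. Other genes from the lists were named after their values were seen. Alternatives used DESeq2 1.42.0, limma-voom (limma 3.58.1), other scalings and filters, a replicate block, and each library left out. Same-numbered libraries were not paired. In data simulated for R98W against WT (50 genes per fold, 20622 tested), the share recovered by edgeR was 20% for 1.25-fold changes, 62% for 1.5-fold, 76% for 2-fold and 100% for 4-fold, and 11 unchanged genes were called. Far fewer genes were changed there than were called in the data (34.8% of tested genes). These shares thus do not give the sensitivity of this comparison. No replicate pair was as close as sampling noise.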

Additional observations from a re-analysis of the deposited data

How the results depend on the processing

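The members' calls were 1 higher and 2 lower in all 14 alternatives but 1. The fit without R98W replicate 2 gave 1 higher and 1 lower. Since the members were picked on this contrast, these counts describe the processing and do not support the differences. Scaling by library totals, chosen after seeing the data, moved the median log2 fold change of all genes by -0.12 and the calls over all genes from 3364 higher and 3839 lower to 1708 and 5343. LGALS3 then had 0.68, LGALS3BP -0.47, LGALS1 -0.42, LGALS8 -0.09 and LGALS9 -0.02, so the small differences of the last pair change sign with the scaling. With single libraries left out, called genes ran from 5400 to 7212 over all genes and from 7 to 14 for the glycoproteins. They ran from 4 to 7 for the genes listed for lactosamine chains and O-glycans. The cause was not tested. The replicate numbers did not pair the libraries: deviations of same-numbered libraries from their group means correlated at 0.006, -0.039 and -0.037. With the replicate block 6883 genes were called, 3205 higher and 3678 lower, and the members' calls were again 1 and 2. For LGALS4, LGALS9 and the weaker family genes counting error was 8.69% of the level or more. The CV between libraries was larger than counting error for LGALS4 in both groups (15.1% in WT and 15.4% in R98W). For LGALS9 it was 47.2% in WT, against 10.9% from counting, and 10.4% in R98W, against 10.8%.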
